A study of Homo sapiens with 9 samples.

Results

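The genes of the pre-mRNA splicing machinery were followed through STAG2 depletion in RT112 cells, a human line grown from bladder carcinoma. Members were all entries of the expression table whose name begins with HNRNP, SRSF, SF3A, SF3B or SNRP. The rule found 59 of 23370 entries, namely 25 HNRNP, 12 SRSF, 9 SF3A or SF3B and 13 SNRP entries. RNA was measured by sequencing poly(A)+ RNA in 9 libraries, 3 in each of 3 groups. Control cells carried a non-targeting short hairpin RNA (shNT), whereas the other groups carried 1 of 2 hairpins that target STAG2 (sh1 or sh2). The STAG2 protein belongs to cohesin, a ring-shaped complex that keeps sister chromatids together and helps to fold chromatin into loops. Cells of all 3 groups were RT112 cells transduced with a hairpin and then kept without serum. The labels name no clone, and they leave unsaid whether replicates were separate cultures. The p-values therefore reflect only how far these libraries scatter, and part of that scatter may be technical. Depth is unknown, since the table holds no counts.

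Introns are removed by the spliceosome, which is built from small nuclear ribonucleoproteins (snRNPs). The SNRP genes encode snRNP proteins, among them the Sm proteins (SNRPB, SNRPD1, SNRPD2, SNRPD3, SNRPE, SNRPF and SNRPG), which form a ring around the snRNA. SF3A and SF3B are the protein complexes of the U2 snRNP that help it hold the branch point, and SF3B1 is a gene mutated in several cancers. SRSF genes encode SR proteins, which bind exons and commonly favour their inclusion. The hnRNP proteins coat nascent RNA, often repress exons, and also act in RNA export and stability. SR and hnRNP proteins are abundant in dividing cells, and several control the splicing of their own transcripts.

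Letters known from promoters were counted in each family, and 6 stretches are shown as examples of the 2 motifs that the counts below turn on. Each holds the 100 bases just before an annotated start in RefSeq (GRCh38.p14), read 5′ to 3′ on the strand of the gene, with the matched letters in capitals. In 3 genes of the SNRP family the capitals mark CCGGAAG, the core read by ETS factors, or its reverse complement. The SNRPB stretch is chr20:2470790-2470889 on the minus strand, that of SNRPB2 is chr20:16729926-16730025 on the plus strand, and that of SNRPG is chr2:70293459-70293558 on the minus strand.
SNRPB: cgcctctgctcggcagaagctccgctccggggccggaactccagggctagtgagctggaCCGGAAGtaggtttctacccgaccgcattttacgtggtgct
SNRPB2: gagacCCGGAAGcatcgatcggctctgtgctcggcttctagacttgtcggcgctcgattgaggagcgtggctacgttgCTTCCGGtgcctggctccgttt
SNRPG: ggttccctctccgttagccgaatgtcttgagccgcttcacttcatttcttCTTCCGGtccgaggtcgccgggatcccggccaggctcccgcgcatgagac

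In 3 HNRNP genes the capitals mark CCAAT, the letters of the CCAAT box, or its reverse complement. The HNRNPAB stretch is chr5:178204433-178204532 on the plus strand, that of HNRNPC is chr14:21269443-21269542 on the minus strand, and that of HNRNPUL2 is chr11:62727458-62727557 on the minus strand.
HNRNPAB: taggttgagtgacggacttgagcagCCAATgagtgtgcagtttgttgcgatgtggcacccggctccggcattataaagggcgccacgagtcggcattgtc
HNRNPC: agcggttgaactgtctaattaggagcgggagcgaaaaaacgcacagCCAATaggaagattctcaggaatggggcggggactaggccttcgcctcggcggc
HNRNPUL2: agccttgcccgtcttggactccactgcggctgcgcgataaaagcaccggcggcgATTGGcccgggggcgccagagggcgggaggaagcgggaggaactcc

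Windows from 250 bases before to 50 after a start were at hand for 46 of the 53 members that passed the filter on low values given below. The antisense and read-through entries were left out, both strands were searched, and no motif is contained in another. CCGGAAG was present at 7 of 10 SNRP genes (SNRPA1, SNRPB, SNRPB2, SNRPC, SNRPD2, SNRPE and SNRPG) and at 6 of 8 SF3A and SF3B genes. The same letters were present at 2 of 10 SRSF genes, 2 of 18 HNRNP genes and 23.6% of the 9115 tested genes with a window. CCAAT was present at 15 of 18 HNRNP genes, 4 of 10 SNRP genes, 2 of 10 SRSF genes and 1 of 8 SF3A and SF3B genes, against 43.7% of tested genes. GGGCGG, the GC box, was present at 15 of 18 HNRNP, 5 of 10 SNRP, 4 of 10 SRSF and 6 of 8 SF3A and SF3B genes. Its share of tested genes was 78.1%. TATAAA, the TATA box, was present at 3 of 18 HNRNP, 1 of 10 SNRP, 3 of 10 SRSF and 0 of 8 SF3A and SF3B genes. It was present at 7.91% of tested genes. CACGTG, the E-box, was present at 6 of 18 HNRNP, 0 of 10 SNRP, 0 of 10 SRSF and 1 of 8 SF3A and SF3B genes. Over tested genes the share was 12.7%. These are matches of letters, no binding was measured, and the difference between families was not tested.

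The libraries were checked against their labels. STAG2 was at 16.8, 34.7 and 27.7 FPKM (fragments per kilobase of transcript, scaled to the mapped total) in shNT replicates 1 to 3, at 3.76, 4.13 and 5.34 FPKM with sh1 and at 3.41, 4.93 and 3.48 FPKM with sh2. All 6 silenced libraries lay below all 3 controls (log2 fold change over both hairpins -2.36, limma adjusted p = 0.00797, but 0.0556 without shNT replicate 3). Of 20 listed markers of urothelium and bladder carcinoma 18 passed the filter, among them KRT5 and KRT17 at 2000 ± 1675 and 2618 ± 2035 FPKM in controls (SD, n = 3). Both were lowest in shNT replicate 3. KRT5 was at 518 FPKM there and at least 1664 FPKM in the other 8 libraries, and KRT17 at 410.1 and at least 2978 FPKM. The uroplakins UPK1A and UPK3A stayed below 0.2 FPKM in every library, whereas UPK1B was at 8.43 to 24.3 FPKM and UPK2 at 4.6 to 14.4 FPKM. Of 14 markers of blood, endothelial, stromal and liver cells 1 passed the filter (COL1A1, at most 6.85 FPKM), and COL1A2 and ALB were at 0 in all 9 libraries. The summed level of the 14 markers was 4.06 to 8.63 FPKM. In summed FPKM and in its trend on transcript length 1 library stood apart. The summed FPKM was 516464 in shNT replicate 1 and 397792 to 434433 in the other 8, and in shNT replicate 1 genes deviated from their mean level against transcript length (Spearman's rho = -0.591 over 11152 genes, a description across genes of 1 library). Without that library the fold change over both hairpins moved by over 1.5 times or changed sign in 41 of 53 tested members, so values without it stand beside the results it moves most.

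All fold changes are log2 differences on the log2(FPKM + 1) scale, and a gene counts as called at an adjusted p under 0.05 in limma. Entries with a mean of at least 1 FPKM over the 9 libraries were tested, 11952 in all and 53 of the 59 members (22 HNRNP, 11 SRSF, 9 SF3A or SF3B and 11 SNRP). The 6 members below the filter were HNRNPA3P1, HNRNPCL1, HNRNPKP3, SNRPD2P2, SNRPN and SRSF12. SNRPD2P2, a pseudogene entry, was listed at 0 in every library. SNRPN, whose protein is a close relative of that of SNRPB, was at 1.35e-06 FPKM on average, while SNURF, which lies in the same transcription unit, was at 26.3 to 43 FPKM. How the authors divided fragments between SNRPN and SNURF is not given in the sources used here, so the value of SNRPN is uncertain. HNRNPCL1, a relative of HNRNPC, was at no more than 0.000295 FPKM, and the pseudogene entries HNRNPA3P1 and HNRNPKP3 were at no more than 0.13 and 0.279 FPKM. SRSF12, an SR protein gene of restricted expression, was at 0.128 to 0.302 FPKM.

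No member was called in any comparison. Against controls 0 of 53 were called with sh1, where 0.167% of all tested genes were, and 0 of 53 with sh2, where 0.00837% were. Over both hairpins 0 of 53 were called against 0.00837% of genes, and between the hairpins 0 of 53 against 0.218%. At an unadjusted p under 0.05 the counts were 2 of 53 members against 13.5% of genes with sh1, 2 against 12.7% with sh2, 0 against 12.6% over both and 4 against 14.1% for sh2 against sh1. With all 9 libraries these were 3.77%, 3.77%, 0% and 7.55% of members. The controls moved these counts. Without shNT replicate 1 it was 12 of 53 (22.6%) for sh2 against sh1, against 20.6% of genes, and 4 of 53 over both hairpins, against 10.7%. Without shNT replicate 2 it was 12 of 53 (22.6%) with sh2, against 22.3% of genes, and 8 of 53 over both, against 21.8%.

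The intervals reflect the scatter of these libraries under the deposited scaling, and they leave out the choice of scaling. Over both hairpins the 95% interval of the fold change lay within 2-fold either way for 53 of 53 members, against 91.4% of all tested genes. It lay within 1.5-fold for 42 of 53, against 59.1% of genes. The 11 members outside 1.5-fold were 7 SNRP, 2 HNRNP and 2 SF3B entries, and all 11 SRSF members were inside. These intervals are for the mean of both hairpins. With sh2 alone that of SF3B5 ran from -1.09 to -0.067, which reaches beyond 2-fold (limma adjusted p = 0.384). Separation of the groups was about as rare among the members as over all tested genes. In 0 of 53 members did all 6 silenced libraries lie below all 3 controls, against 2.17% of genes. In 1 member (1.89%), SRSF4, all 6 lay above, against 2.28%.

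**Figure D1:**
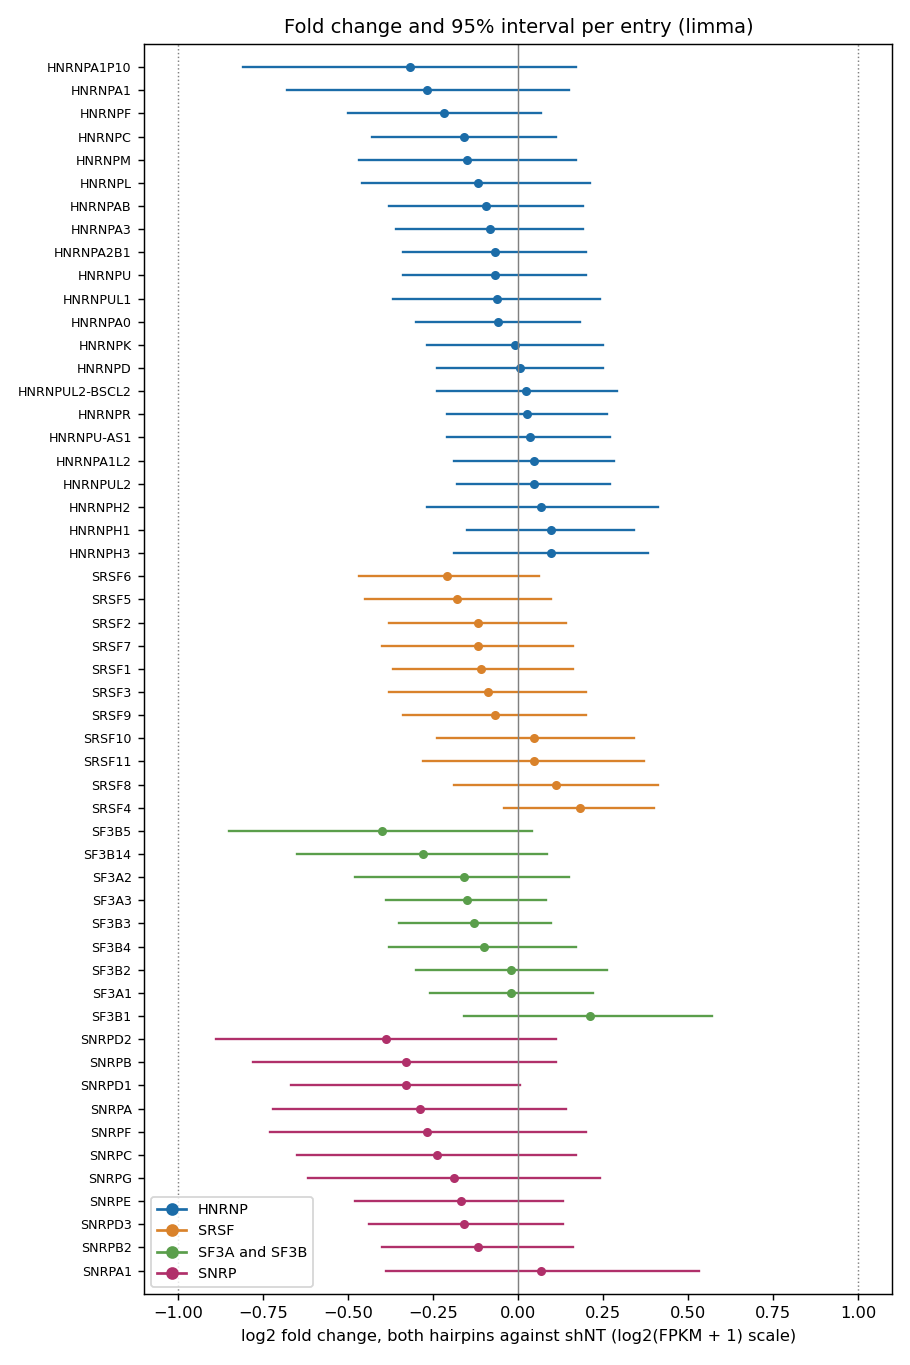
Log2 fold change over both hairpins against shNT for each of the 53 tested members (points) with its 95% interval from limma (bars), on the log2(FPKM + 1) scale, coloured by family and ordered within it. Every interval crosses 0 and stays within the dotted lines at 2-fold, and the SNRP intervals are among the widest.

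The hnRNP genes held the highest levels of the membership. HNRNPA1, which shuttles between nucleus and cytoplasm and represses exons, averaged 303 FPKM over the 9 libraries. HNRNPA2B1, its close relative, averaged 275 FPKM, and HNRNPK, which binds C-rich RNA, averaged 244 FPKM. Summed FPKM of the HNRNP entries was 2459, 2469 and 2538 in shNT, 2329, 2623 and 2397 with sh1 and 2098, 2468 and 2177 with sh2, so the groups overlapped. Over both hairpins 13 of 22 HNRNP entries were lower and 9 higher, with a median of -0.062 against -0.017 for all tested genes. That median was 0.13 with spike-in scaling, 0.057 with equal summed FPKM and 0.0035 after quantile normalization.

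HNRNPA1 had the lowest estimate among the standard HNRNP genes. Its level was 309.8, 322 and 383 FPKM in shNT, 254, 382 and 314 FPKM with sh1 and 199, 315 and 251 FPKM with sh2. Values of sh2 reached into the control range, and the fold change over both hairpins was -0.27 (SE 0.19, limma adjusted p = 0.533). HNRNPA1P10, a processed copy of HNRNPA1, had -0.32 (limma adjusted p = 0.527), or -0.52 without shNT replicate 1, and its FPKM was 0.239 to 0.384 of that of HNRNPA1 in the 9 libraries. Fragments of these 2 entries may have been shared between them by the authors' counting, so both are uncertain. HNRNPA1L2, another copy, stayed between 4.04 and 4.77 FPKM.

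HNRNPF, which binds G-rich stretches, had the smallest p-value of the family with sh1. It was at 92.4, 105 and 122 FPKM in shNT, 75.6, 88.8 and 84.3 FPKM with sh1 and 92.8, 109 and 97.8 FPKM with sh2. All 3 sh1 libraries lay below all 3 controls and below all 3 sh2 libraries. The sh1 fold change was -0.35 (SE 0.15, limma adjusted p = 0.342) and that of sh2 was -0.084, or -0.45 and -0.18 without shNT replicate 1. Its relative HNRNPH3 ran the other way, at 68.6, 81.4 and 73.4 FPKM in shNT, 79.4, 94.5 and 97.3 FPKM with sh1 and 62.4, 79.7 and 69.2 FPKM with sh2. The sh2 value was lower than that of sh1 at each replicate number, and the difference between the hairpins was -0.36 (SE 0.15, limma adjusted p = 0.315). HNRNPH1 and HNRNPH2, close paralogs of HNRNPF, averaged 164 and 20.1 FPKM and had fold changes over both hairpins of 0.095 and 0.068, or 0.059 and -0.06 without shNT replicate 1.

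Several hnRNP genes were among the steadiest of the tested genes. HNRNPR, a relative of the RNA-binding protein SYNCRIP, was at 92.4, 93.2 and 101 FPKM in shNT, 97.3, 92.5 and 104 FPKM with sh1 and 101, 98.5 and 90.4 FPKM with sh2. The SD of its log2(FPKM + 1) over the 9 libraries was 0.0712, which was lower than in all but 0.435% of tested genes. HNRNPK followed with 0.0724, and its FPKM was 232, 244 and 259 in shNT, 247, 263 and 237 with sh1 and 232, 252 and 229 with sh2. HNRNPA2B1 was steady as well, at 288, 285 and 276 FPKM in shNT, 249, 264 and 289 FPKM with sh1 and 271, 295 and 254 FPKM with sh2 (SD 0.0857). The median SD was 0.142 over the 22 HNRNP entries, 0.152 over SRSF, 0.16 over SF3A and SF3B and 0.318 over SNRP, against 0.252 over all tested genes.

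HNRNPC, which binds U-rich tracts, and HNRNPAB, a relative of HNRNPD, were lower with sh2 than with sh1 in every library. HNRNPC was at 119.9, 91.5 and 106 FPKM in shNT, 94.8, 101 and 106 FPKM with sh1 and 82.6, 87.7 and 93.9 FPKM with sh2. HNRNPAB was at 201, 169 and 168 FPKM in shNT, 192, 204 and 165 FPKM with sh1 and 147, 161 and 144 FPKM with sh2. The hairpin differences were -0.19 (limma adjusted p = 0.578) and -0.31 (limma adjusted p = 0.381), and neither passed. HNRNPL, which binds CA repeats, had a fold change over both hairpins of -0.12, which was -0.0021 without shNT replicate 1. HNRPDL and HNRPLL, related genes listed under older symbols that the naming rule does not take, had -0.095 and 0.092 (limma adjusted p = 0.677 and 0.789). HNRNPU-AS1 and HNRNPUL2-BSCL2, an antisense and a read-through entry, had 0.033 and 0.022 (the latter -0.10 without shNT replicate 1), and it is not stated whether the counting used strand, so reads of overlapping genes cannot be told apart.

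The SR protein genes varied less than the SNRP genes and pointed in both directions. SRSF9, SRSF5 and SRSF2 had the highest means, 124, 113 and 103 FPKM. Over both hairpins 7 of 11 were lower and 4 higher, with a median of -0.09, which was -0.056 without shNT replicate 1, 0.10 with spike-in scaling and 0.029 with equal summed FPKM. The summed FPKM of the family was 809, 703 and 783 in shNT, 679, 727 and 741 with sh1 and 742, 731 and 699 with sh2.

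SRSF4 was the member whose groups separated over both hairpins. Its FPKM was 43.1, 40.6 and 38 in shNT, 45.9, 47.9 and 44.8 with sh1 and 47.2, 43.3 and 47.2 with sh2. The gap was narrow, from a highest control of 43.1 to a lowest silenced value of 43.3. The fold change was 0.18 (SE 0.099, limma adjusted p = 0.445), and it ranged from 0.13 to 0.37 under the alternatives run on it. These refit the same libraries that singled the gene out, so the steady sign is no separate support.

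SRSF6 and SRSF9 were the SR genes with the smallest p-values. SRSF6, a regulator of alternative exons that is known in epithelial cancers, was at 81.1, 75.2 and 93.4 FPKM in shNT, 57.2, 66.6 and 72 FPKM with sh1 and 79.7, 79.1 and 78.9 FPKM with sh2. All 3 sh1 libraries lay below the controls and below sh2, and the sh1 fold change was -0.35 (SE 0.14, limma adjusted p = 0.32). SRSF9 was at 143, 109 and 131 FPKM in shNT, 146, 133 and 135 FPKM with sh1 and 107, 104 and 106 FPKM with sh2. All 3 sh2 libraries lay below all 6 others. Between the hairpins it differed by -0.38 (SE 0.14, limma adjusted p = 0.266), and its sh2 fold change against controls was -0.26 (limma adjusted p = 0.428).

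The other SR genes were described by their fold changes over both hairpins. SRSF5 had -0.18, and -0.083 without shNT replicate 1, at 139, 105 and 124 FPKM in shNT, 97.5, 104 and 111 FPKM with sh1 and 106, 115 and 113 FPKM with sh2, and its groups overlapped. SRSF1, a founding member of the family and an oncogene in some tumours, averaged 42.3 FPKM and had -0.11, and -0.18 without that library. SRSF2, a gene mutated in myeloid cancers, had -0.12, and -0.067 without it. SRSF3 and SRSF7, which also act in RNA export, had -0.09 and -0.12, or 0.015 and -0.026 without it. SRSF8, SRSF10 and SRSF11 had 0.11, 0.046 and 0.047, or 0.12, -0.056 and -0.10 without it. Their limma adjusted p values, for 8 genes and with all libraries, spanned 0.528 to 0.897.

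The U2 snRNP proteins of SF3A and SF3B numbered 9, and all were tested. SF3B1, SF3B2 and SF3B14 (SF3B6 in RefSeq, the protein near the branch point adenosine) had the highest means, 111, 98.4 and 91.6 FPKM. Over both hairpins 8 of 9 were lower and 1, SF3B1, was higher. The median of -0.13 was -0.064 without shNT replicate 1, -0.012 with equal summed FPKM and 0.057 with spike-in scaling.

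Both ends of that range, taken over both hairpins, depended much on 1 control library. SF3B1, the scaffold of SF3B, was at 73.5, 118 and 114 FPKM in shNT, 114, 109 and 122 FPKM with sh1 and 105, 129.7 and 112 FPKM with sh2. The lone low value is shNT replicate 1, and the fold change of 0.21 (SE 0.16, limma adjusted p = 0.578) was -0.01 without it. SF3B5, a small SF3B subunit, was at 133, 68.9 and 79 FPKM in shNT, 75, 78.1 and 77.1 FPKM with sh1 and 49.5, 69.2 and 62.4 FPKM with sh2. Here shNT replicate 1 is the lone high value, and the fold change of -0.40 (SE 0.20, limma adjusted p = 0.42) was -0.12 without it. With sh2 alone SF3B5 had -0.58 (limma adjusted p = 0.384), or -0.30 without that library. SF3B14 was at 140.2, 82.5 and 94.3 FPKM in shNT and between 74.9 and 91.9 FPKM in the 6 silenced libraries, and its -0.28 (limma adjusted p = 0.463) was -0.064 without shNT replicate 1. SF3A1, which contacts the U1 snRNP, stayed between 28.1 and 33.6 FPKM and had -0.021, or -0.09 without that library. SF3B2 had -0.023 (limma adjusted p = 0.944), or 0.099 without it.

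The snRNP protein genes showed the widest spread of the 4 families, and most of it lay in 1 library. SNRPB, the gene of the SmB proteins, was at 352, 173 and 210.0 FPKM in shNT, 192, 192 and 193 FPKM with sh1 and 176, 170.5 and 191 FPKM with sh2. SNRPD2 was at 311, 144 and 188 FPKM in shNT, 137, 159.9 and 177 FPKM with sh1 and 135, 148 and 176 FPKM with sh2. SNRPG was at 202, 113 and 107 FPKM in shNT, 136, 136 and 117 FPKM with sh1 and 112, 105 and 106 FPKM with sh2. In each of these 3 Sm genes shNT replicate 1 exceeds every other library, and the other 2 controls lie among or near the silenced values.

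The same library was the highest for all 11 tested SNRP members. It was highest for 3 of 22 HNRNP, 4 of 11 SRSF and 5 of 9 SF3A and SF3B members, and for 3262 of 11950 tested genes. The median SNRP member was 1.83 times the mean of shNT replicates 2 and 3 there, against 0.945 and 1.06 in those 2 libraries and 0.871 to 1.2 in the silenced ones. Summed FPKM of the family was 1518 in shNT replicate 1 and 774 to 968 in the other 8 libraries. SNRP transcripts are short, with a median length of 815 bases against 2531 over all tested genes, and 1991 over 50 members with a known length. Over those 50 members the deviation ran against length in shNT replicate 1 (Spearman's rho = -0.592) and with length in shNT replicate 2 (0.597), sh2 replicate 2 (0.542) and sh2 replicate 1 (0.42). Over all genes these were -0.591, 0.257, 0.286 and 0.259, and within the 11 SNRP members shNT replicate 1 had -0.245. With the trend on transcript length removed in each library, an alternative chosen after the data were seen, the SNRP median over both hairpins was -0.074 with 8 of 11 members lower.

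**Figure D2:**
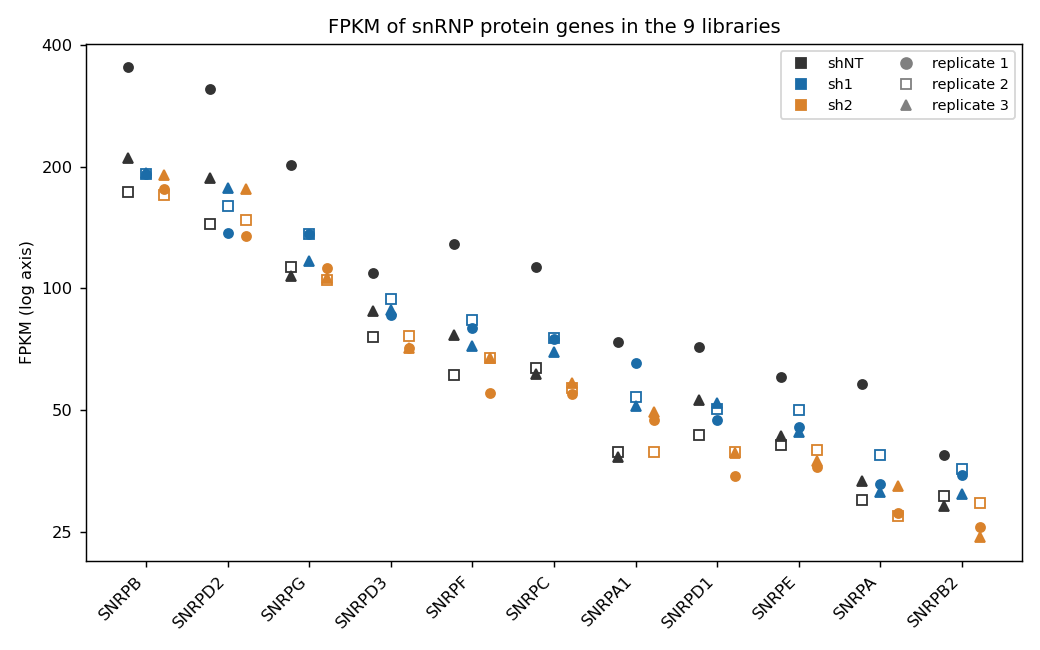
FPKM (log axis) of the 11 tested SNRP genes in the 9 libraries, with colour for the hairpin and marker shape for the replicate number. The black circles of shNT replicate 1 lie above all other values of each gene, for example 352 against at most 210.0 FPKM for SNRPB.

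Against all 3 controls SNRP had the lowest median of the 4 families, -0.24 over both hairpins with 10 of 11 members lower. Without shNT replicate 1 the median was -0.0017 with 6 of 11 lower, and with spike-in scaling, which moved the median of all tested genes to 0.15, it was -0.051. The widest estimate was that of SNRPD2, -0.39 (SE 0.22, limma adjusted p = 0.454), and it was -0.087 without shNT replicate 1. SNRPB had -0.33 (SE 0.20, limma adjusted p = 0.477) and -0.039 without that library. SNRPA1, a U2 snRNP protein, was the 1 member above 0, at 0.066 (limma adjusted p = 0.899). Without shNT replicate 1 it had 0.37 (limma adjusted p = 0.442), and 5 of 11 members were above 0. With sh1 alone the family median was -0.057, and it was 0.14 without shNT replicate 1. With sh2 alone it was -0.39 with 11 of 11 lower, -0.12 with 10 of 11 lower without that library, and -0.21 with the length trend removed. Leaving out shNT replicate 2 instead, 8 of 11 had an unadjusted p under 0.05 with sh2, against 22.3% of genes. Over both hairpins it was then 5 of 11, against 21.8%. With all libraries these counts were 1 and 0 of 11, and no fit called a member (smallest limma adjusted p = 0.0986 and 0.124 without shNT replicate 2).

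SNRPD1, an Sm protein gene, had the smallest p-value of all members against controls. It was at 71.6, 43.4 and 52.8 FPKM in shNT, 47.2, 50.4 and 52 FPKM with sh1 and 34.4, 39.4 and 39.1 FPKM with sh2. All 3 sh2 libraries lay below all 3 controls and all 3 sh1 libraries. The sh2 fold change was -0.53 (SE 0.17, limma adjusted p = 0.372), or -0.34 (limma adjusted p = 0.474) without shNT replicate 1. The difference from sh1 was -0.40 (SE 0.17, limma adjusted p = 0.342). SNRPE and SNRPD3, also of the Sm ring, had sh2 fold changes of -0.32 and -0.30 (limma adjusted p = 0.411 and 0.413), or -0.15 and -0.16 without that library.

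**Figure D3:**
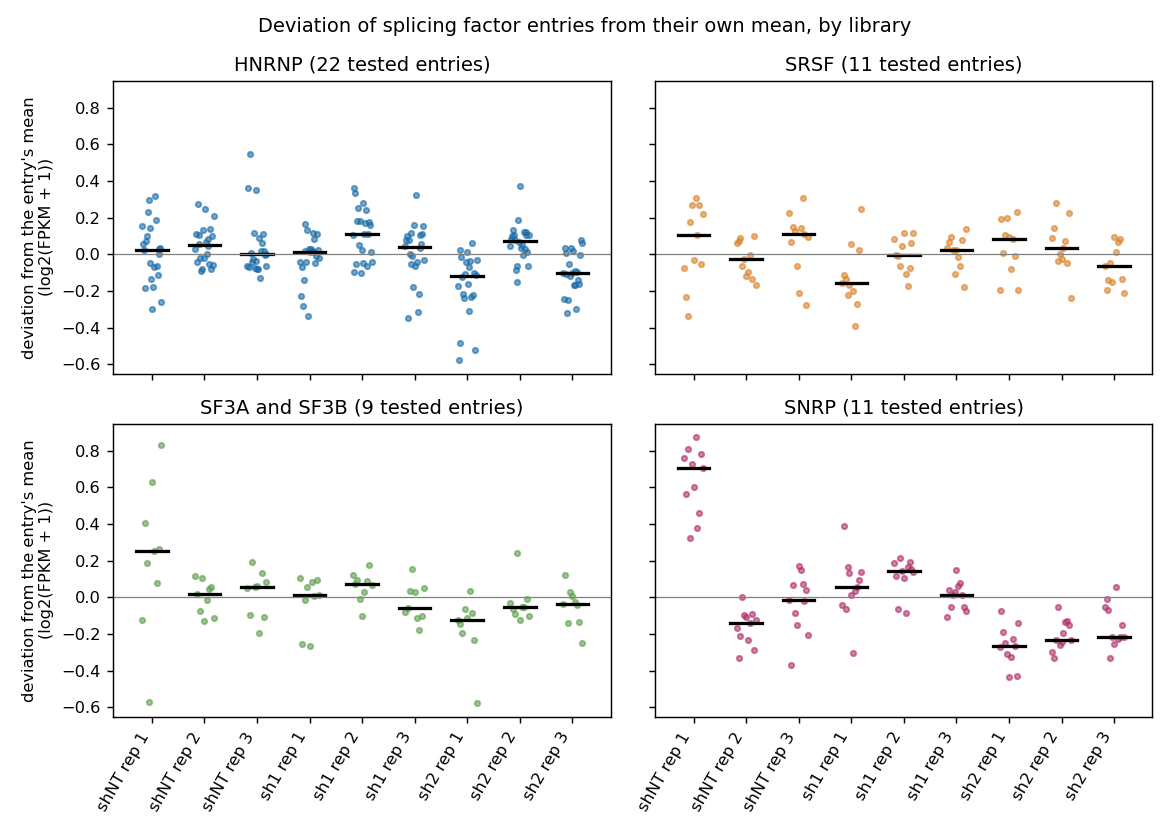
Deviation of each tested member from its own mean over the 9 libraries, on the log2(FPKM + 1) scale, by family and library (points, with the family median as a black bar). In shNT replicate 1 the SNRP median is 0.71, while the 3 sh2 libraries have SNRP medians of -0.26, -0.22 and -0.22.

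The values of sh2 and sh1 can be set against each other without the controls, although the controls still enter the spread that limma uses. In this comparison the snRNP members lay lower with sh2, and none was called. All 3 sh2 libraries lay below all 3 sh1 libraries in 9 of 11 SNRP members, and in 16 of 53 members, which is 30.2% against 15.3% of all tested genes. The other 7 were 4 HNRNP, 2 SF3A or SF3B and 1 SRSF members. In the opposite direction it was 2 of 53, HNRNPF and SRSF6, against 13.3% of genes. By replicate number sh2 was below sh1 at all 3 numbers in 26 of 53 members against 29.3% of genes, among them 10 of 11 SNRP and 12 of 22 HNRNP members. It was above at all 3 numbers in 5 of 53 members against 27% of genes, and 4 of these 5 were SRSF genes.

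The SNRP median of the difference was -0.29, with 11 of 11 members lower and 0 of 11 called. At an unadjusted p under 0.05 it was 2 of 11 members (smallest limma adjusted p = 0.332), but 8 of 11 without shNT replicate 1 (0.101) and 8 of 11 with only the sh1 and sh2 libraries in the fit (0.0922). In that last fit 14 of 53 members (26.4%) had an unadjusted p under 0.05, against 22.8% of genes. Other fits lowered the SNRP count, to 0 of 11 with spike-in scaling (9.68% of genes) and 1 of 11 with the replicate block (18.7%). The count was 3 of 11 with the trend on transcript length removed (17% of genes) and 3 of 8 with restored values set to missing (13.7%). Dropping any 1 of the hairpin libraries left 0 or 1 of 11 (smallest limma adjusted p from 0.334 to 0.694). The share of all genes was then 7.54% to 13%, against 14.1% with all 9 libraries. The count thus depended on the libraries and the scaling used, as did the share over all genes. The SNRP median of the difference was -0.15 with spike-in scaling and -0.24 with equal summed FPKM. It was -0.23 after quantile normalization and -0.23 with the trend on transcript length removed. At replicate numbers 1, 2 and 3 the SNRP medians were -0.32, -0.32 and -0.14, with 11, 11 and 10 of 11 members lower. The SRSF medians were 0.21, 0.028 and -0.04, and the HNRNP medians were -0.15, -0.071 and -0.13. Over all tested genes they were -0.018, -0.01 and 0.0026. A lean to the lower side was not limited to the members. Over 59 tested genes for other spliceosome proteins the medians were -0.12, -0.11 and -0.066, with 43, 46 and 38 of 59 lower. The SNRP members thus stayed on the lower side at each number, while the SRSF median was near 0 at numbers 2 and 3. In bulk libraries fewer cells of a kind and less RNA per cell cannot be told apart.

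SNRPB2, a U2 snRNP protein gene, is an example of a member with separated hairpins. It was at 38.7, 30.7 and 28.9 FPKM in shNT, 34.5, 35.7 and 31 FPKM with sh1 and 25.7, 29.5 and 24.2 FPKM with sh2. Every sh2 value was below every sh1 value, and the difference was -0.34 (SE 0.15, limma adjusted p = 0.332). SNRPC, a U1 snRNP protein gene, was at 113, 63.4 and 61.2 FPKM in shNT, 74.7, 75.2 and 69.5 FPKM with sh1 and 54.6, 56.5 and 58.4 FPKM with sh2. Its hairpin difference was -0.37 (SE 0.21, limma adjusted p = 0.468), and all 3 sh2 values also lay below all 3 controls. SNRPB and SNRPD2, the most abundant of the family, had -0.10 and -0.047. SNRPC, SNRPA1, HNRNPR, HNRNPU-AS1 and HNRNPUL2-BSCL2 were named after their values were seen.

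**Figure D4:**
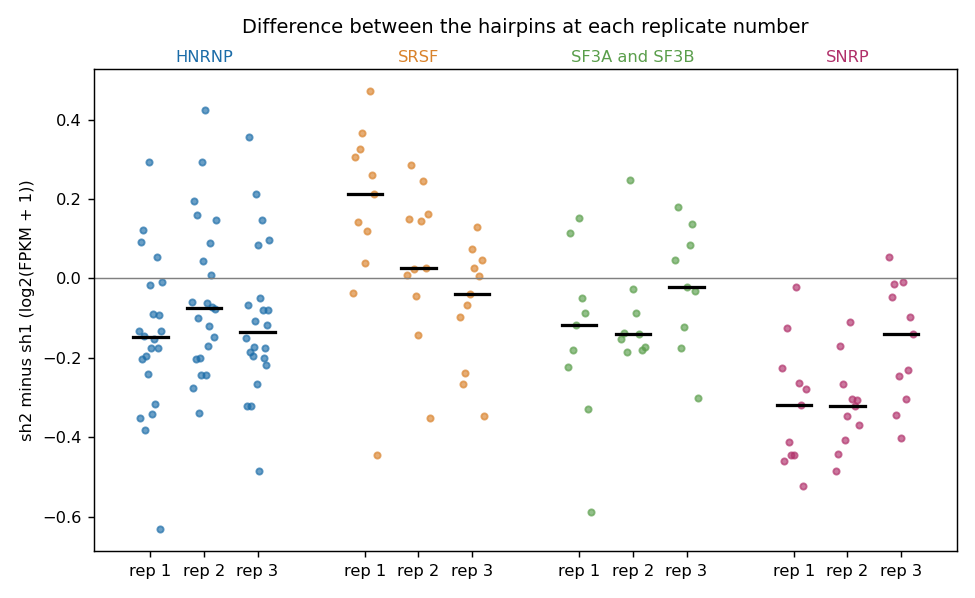
Difference between sh2 and sh1 for each tested member at replicate numbers 1, 2 and 3, on the log2(FPKM + 1) scale, by family (points, with the median as a black bar). The SNRP medians are -0.32, -0.32 and -0.14, and those of SRSF are 0.21, 0.028 and -0.04.

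Genes that work with the members were read from lists. Of 59 tested genes for other spliceosome proteins, 0 were called in either direction over both hairpins, with 36 lower, 23 higher and a median of -0.09. Without shNT replicate 1 it was 31 lower, 28 higher and -0.0063. LSM2, of the Sm-like ring on U6 snRNA, and SNRNP35, of the minor spliceosome, had the lowest estimates, -0.61 (SE 0.19, limma adjusted p = 0.328) and -0.57 (SE 0.19, limma adjusted p = 0.342), or -0.33 and -0.39 without that library. LSM2 averaged 74.8 ± 27.5 FPKM (SD, n = 3) in shNT, 48.3 ± 3.94 under sh1 and 45.5 ± 4.54 under sh2. U2AF1 and U2AF2, which mark the 3′ splice site, had -0.33 and -0.071 (limma adjusted p = 0.416 and 0.79), or -0.15 and 0.037 without it.

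Of 40 tested splicing regulators outside the 4 families 0 were called, with 19 lower and 21 higher. QKI and MBNL1, regulators of alternative exons in differentiation, had 0.58 and 0.47 (limma adjusted p = 0.339 and 0.378), or 0.38 and 0.19 without shNT replicate 1. The SR-related TRA2B had -0.011 and the polypyrimidine tract binder PTBP1 had -0.082, or 0.067 and -0.027 without it. Of 10 tested SR protein kinase and import genes 0 were called, with 4 lower and 6 higher. SRPK2, a kinase of SR proteins, averaged 13.6 ± 3.23 FPKM (SD, n = 3) in shNT, 22.9 ± 2.05 under sh1 and 21.9 ± 2.11 under sh2. Its fold change was 0.70 (SE 0.14, limma adjusted p = 0.314). Its relative SRPK1 had 0.26, the kinase CLK1 had 0.10 and TNPO1, an import receptor, had 0.46 (limma adjusted p = 0.489, 0.77 and 0.46). Without shNT replicate 1 these 3 had 0.057, 0.056 and 0.092, and SRPK2 had 0.58. By hairpin, CLK1 had -0.20 with sh1 and 0.41 with sh2, or -0.25 and 0.36 without that library. TNPO1 had 0.16 and 0.77, or -0.22 and 0.40 without it. In both genes all 3 sh2 libraries lay above all 3 sh1 libraries, as in 13.3% of all tested genes. Neither hairpin difference was called (limma adjusted p = 0.192 for CLK1 and 0.403 for TNPO1).

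Of 14 tested snRNP assembly genes 0 were called, with 12 lower and 2 higher and a median of -0.12. WDR77, of the methylosome that modifies Sm proteins, had -0.50 (SE 0.17, limma adjusted p = 0.342), and GEMIN6, of the SMN complex, had -0.33 (limma adjusted p = 0.42), or -0.13 without shNT replicate 1. Of 12 tested growth and cell cycle genes 0 were called, with 11 lower and a median of -0.25, or 10 lower and -0.16 without shNT replicate 1. The 1 gene above 0 was the proliferation marker MKI67, named after its values were seen, with 0.34 over both hairpins and 0.58 with sh2 (limma adjusted p = 0.43 and 0.372). MYC, a transcription factor of growth, averaged 139 ± 87.3 FPKM (SD, n = 3) in shNT, 92.8 ± 24.2 under sh1 and 88.2 ± 27.2 under sh2. Its fold change was -0.48 (limma adjusted p = 0.533). In shNT replicates 1 to 3 it was at 103, 76 and 239 FPKM, so the lone high control was replicate 3. The silenced libraries spanned 67.3 to 120.1 FPKM, which takes in the other controls. MCM3, of the replicative helicase, had -0.44 (limma adjusted p = 0.326). Between the hairpins the growth genes went both ways and none was called. NPM1, FBL and NCL had -0.51, -0.51 and -0.30, each with all sh2 libraries below all sh1 libraries, as in 15.3% of tested genes. MKI67, TOP2A, MCM3, CCNA2 and PCNA were above 0, at 0.49, 0.26, 0.15, 0.074 and 0.02. Apart from MCM3 these were named after their values were seen. The part of growth state in the values of the SNRP members was not tested.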

How the data were processed

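Per the labels, RNA of 9 libraries was prepared with a stranded poly(A)+ protocol and spike-ins, and the authors deposited 1 table of FPKM values. Its build is hg19 according to the submitters' processing notes. Aligner, quantifier, annotation and scaling were not given in the sources used here. Lost decimal points were restored by dividing a value by 1000 where it lay about that far above the gene's other values. Where no value of a gene kept its point, values of 1000 or more were divided without such a reference. Restoring touched 155 of 531 member values. The 3 member entries with no point left were HNRNPA1, HNRNPAB and SNRPD2, so their levels rest on that second rule.

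Values were compared as log2(FPKM + 1) with limma 3.58.1 (R 4.3.3, variance trend, two-sided, Benjamini-Hochberg adjustment over 11952 genes whose mean FPKM was 1 or more), with all 9 libraries in 1 model. The script was tested on simulated data. Libraries with the same replicate number tended to deviate together (correlations of 0.118 to 0.491 in all 9 such pairs). Pairs with unlike numbers had -0.629 to 0.205, so the ranges overlapped. The numbers may thus pair the samples. The values printed here come from the model without a replicate term, and a replicate block was run as an alternative. Transcript lengths came from GENCODE 29 and promoters from RefSeq.

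Named genes were the 3 highest levels and 3 widest fold changes per family, the 5 widest test statistics with each hairpin and between hairpins, members under the filter, set paralogs, and from each list the 2 widest fold changes and a few set genes. Members and lists were chosen with earlier results of these data known.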

Additional observations from a re-analysis of the deposited data

How the results depend on the processing

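With the replicate block 0 of 53 members were called in all 4 comparisons, and over all genes the calls with sh1 were 77 in place of 20. The block changed no other call on a member. No alternative called a member. The member median with sh1 (-0.017) was 0.097 with spike-in scaling and 0.075 with equal summed FPKM. With sh2 (-0.13) it was 0.13, -0.045 after quantile normalization and 0.012 with equal summed FPKM. Over both hairpins (-0.10) it was 0.085 with spike-in scaling, 0.015 with equal summed FPKM and, on leaving out 1 library, from -0.14 to -0.026, the last without shNT replicate 1. Between the hairpins (-0.097) it was 0.047 with spike-in scaling and -0.0027 after quantile normalization. Spike-in scaling moved the median of all genes to 0.094, 0.22, 0.15 and 0.12 in these 4 comparisons, and the cause was not tested. The limma adjusted p of STAG2 over both hairpins was 0.0616 with no filter (more genes tested), 0.0831 with equal summed FPKM, and 0.00187 to 0.0556 on leaving out 1 library, the last without shNT replicate 3. Of 39 tested members named, 17 had the opposite sign over both hairpins with spike-in scaling, 9 with equal summed FPKM, 10 without shNT replicate 1 and 4 after quantile normalization, and none of these was called. Removal of the trend on transcript length was added after the data were seen. With restored values set to missing, 27 of these 39 gave a value, and 5 had the opposite sign. Depth is unknown, so the spread between 3 libraries is the error used.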
